A study of Homo sapiens with 18 samples.

Results

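The ATP-binding cassette (ABC) transporters are a gene family whose proteins use ATP to move drugs, conjugated anions, lipids, heme and other cargo across membranes. Members were taken from the probes whose RefSeq transcript carries a symbol of the form ABC, a letter from A to G and a number, without pseudogenes. The members analysed here were 40 genes on 58 probes, out of 19716 genes named on the array, and are not the whole family. ABCF2, whose probe RefSeq assigns to a readthrough transcript, was not among them. By textbook function 8 of them export drugs, 4 export organic anions, 16 handle sterols, phospholipids or other lipids, 3 lie in mitochondria, 4 lie in peroxisomes or lysosomes, 2 regulate potassium channels and 3 are soluble proteins that transport nothing.

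Each transporter couples ATP hydrolysis at its nucleotide-binding folds to a change in the shape of its membrane domain. Hepatocytes use the family on both faces of the cell: ABCC2, ABCG2, ABCB1 and the ABCG5 and ABCG8 pair push drugs, conjugates and sterols into bile, whereas ABCC3, ABCC4 and ABCA1 face the blood. In liver cancer the drug-efflux members are best known for lowering the intracellular amount of chemotherapeutic agents, and ABCG2 marks the dye-excluding side population of many tumors.

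The 18 one-color arrays measured EpCAM+ cells sorted from the human hepatocellular carcinoma (HCC) lines Huh1 and Huh7. In each line 3 arrays came from control cells, 3 from cells given disulfiram (DSF, an inhibitor of aldehyde dehydrogenase) at 0.1 µM for 48 h, and 3 from cells given 5-fluorouracil (5-FU, a pyrimidine antimetabolite) at 1 µM for 48 h. The study's methods give the treatment as DSF/CuCl2, that is with copper chloride, so effects of DSF and of copper cannot be told apart here. What was added to control cells is not given in the sources used here. All groups share the EpCAM sort, each line is a single established tumor line, and each array is an independent experiment by the study's methods. Levels are log2 signals relative to the 75th percentile of the same array, so 0 is the level of that percentile. Because probes differ in how they bind, levels are compared between groups for a gene and never between genes, and fewer cells with a transcript cannot be told apart from less transcript per cell.

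The arrays had 59.9% to 71.1% of probes well above background by the scanner software's flag, with the highest shares on Huh7 DSF replicates 2 and 3, which alone made up slide 3. Slide 1 held Huh1 control, Huh1 5-FU and Huh1 DSF replicates 1 and 2, and slide 2 held Huh1 DSF replicate 3 with the remaining Huh7 arrays, so that control cells of the lines were never on the same slide. All 6 hepatoma markers (AFP, ALB, EPCAM, GPC3, KRT8 and KRT18) were well above background in every group, with a summed linear level of 606 to 978. The 7 markers of other cell types summed to 1.35 to 5.02. PTPRC, CD68 and PECAM1 among them were well above background on all 18 arrays, and COL1A2 was not above it in 5 of the groups. In Huh7 the sum was 1.35 to 1.39 in control cells, 1.63 to 1.87 after DSF and 2.82 to 4.26 after 5-FU. In Huh1 it was 2.66 to 4.84, 3.50 to 3.76 and 4.74 to 5.02 in that order. CD68 alone gave most of each sum. Its mean log2 level was 0.06, 0.53 and 1.65 in Huh7 and 1.46, 1.67 and 2.14 in Huh1, in the same order. These sums therefore follow mainly a single gene, and they also depend on how each probe binds. Relative to 6 spike-in transcripts added in fixed amounts, the 75th percentile itself was raised after 5-FU, by a log2 difference of 0.83 (Huh1) and 0.99 (Huh7). A fall after 5-FU given here is therefore a fall relative to the bulk of transcripts, and the value scaled to the spike-ins is given beside it.

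The region upstream of the transcription start is shown for 5 members whose results stand out below, read from RefSeq on build GRCh38.p14. ABCA13 gained signal with DSF in both lines, and its 250 bases at chr7:48171208-48171457 (plus strand) are shown with TATAA (the TATA box) in capitals, 29 bases before the start:
ABCA13: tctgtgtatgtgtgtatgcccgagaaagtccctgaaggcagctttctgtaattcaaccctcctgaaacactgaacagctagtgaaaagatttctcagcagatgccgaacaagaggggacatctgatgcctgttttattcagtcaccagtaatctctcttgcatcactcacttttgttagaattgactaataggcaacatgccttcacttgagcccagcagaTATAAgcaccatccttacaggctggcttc
ABCB1 rose with 5-FU in both lines, and the table holds a window for each of 2 starts. The window at chr7:87600885-87601134 (minus strand) is shown with CCAAT on either strand in capitals, 238 and 79 bases before the start:
ABCB1: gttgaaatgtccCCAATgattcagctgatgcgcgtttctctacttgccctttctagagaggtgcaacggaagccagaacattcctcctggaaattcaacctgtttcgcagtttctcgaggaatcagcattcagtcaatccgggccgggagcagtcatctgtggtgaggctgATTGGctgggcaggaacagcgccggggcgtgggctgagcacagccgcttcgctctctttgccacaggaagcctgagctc
ABCB6 fell with both drugs in both lines, and its window at chr2:219218959-219219208 (minus strand) is shown with TGACNNNGC, the core of an antioxidant response element, in capitals, 152 bases before the start:
ABCB6: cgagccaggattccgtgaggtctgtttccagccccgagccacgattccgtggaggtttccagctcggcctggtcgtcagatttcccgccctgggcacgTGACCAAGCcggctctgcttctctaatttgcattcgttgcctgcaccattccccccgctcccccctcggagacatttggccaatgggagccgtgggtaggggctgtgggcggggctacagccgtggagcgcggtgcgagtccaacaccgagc
ABCG5 and ABCG8 start back to back, and the 131 bases that separate their starts at chr2:43838840-43838970 are shown on the ABCG8 (plus) strand with AGATAA (the GATA box), which lies on the opposite strand, in capitals:
ABCG5-ABCG8: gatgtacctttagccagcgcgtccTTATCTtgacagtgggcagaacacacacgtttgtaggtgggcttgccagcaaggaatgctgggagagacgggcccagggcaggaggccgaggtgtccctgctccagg

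These letters were searched on both strands of the 250 bases before each start. Of 35116 windows in the table, 18.9% hold TATAA, 32.0% hold CCAAT, 10.9% hold TGACNNNGC and 9.17% hold AGATAA. Of the 51 windows of 33 ABC genes, 17.6%, 19.6%, 17.6% and 7.84% do. The metal response core, searched as TGCACNC or TGCGCNC, is in 24.8% of all windows and in 37.3% of ABC windows, and in none of the windows printed above. The ABCB6 window also holds CCAAT, printed in lower case, 73 bases before the start. The ABCB1 window that is not shown holds AGATAA 140 bases before its start. A match is a description of the letters only.

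Of the 40 genes, 37 were tested, which required all 3 arrays of a group to read well above background. The signal of 27 passed that mark on each of the 18 arrays and that of 10 on some. ABCA8, ABCC12 and ABCD2 did not reach the test. ABCA8 and ABCC12 were not well above background on any array, and ABCD2 was so on 1 of the 3 Huh7 5-FU arrays.

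After DSF, 24 of 37 members passed the test (limma, Benjamini-Hochberg adjusted p under 0.05) in Huh1, 8 higher and 16 lower, in a fit in which 52.7% of all 15841 tested genes passed (26.4% higher, 26.3% lower). In Huh7 24 passed, 12 higher and 12 lower, against 53.2% of all genes (29.1% higher, 24.1% lower). With slide as a block the Huh7 count was 14 (8 higher, 6 lower), and within slide 2, which left 1 DSF array against 3 control arrays, it was 12 (6 higher, 6 lower). The fit within slide 2 takes its spread from the Huh7 control and 5-FU arrays. Its adjusted p-values, here and below, therefore hold nothing of the spread among DSF arrays. With spike-in scaling the DSF counts were 18 in Huh1 (8 higher, 10 lower) and 18 in Huh7 (6 higher, 12 lower). After 5-FU, 20 members passed in Huh1 (7 higher, 13 lower; 10 higher and 11 lower with quantile scaling), against 54.9% of all genes (25.9% higher, 29.1% lower). In Huh7 28 members passed (17 higher, 11 lower), against 63.5% of all genes (32.5% higher, 31.0% lower). Scaled to the spike-ins the 5-FU counts were 25 in Huh1, of which 24 were higher, and 31 in Huh7, of which 26 were higher. As shares of the 37 members these counts were 64.9% and 64.9% for DSF and 54.1% and 75.7% for 5-FU in Huh1 and Huh7. The median change ranged from -0.18 to 0.30 on the log2 scale over these 4 comparisons, against -0.03 to 0.04 for all genes. Members rose and fell within each of these comparisons.

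**Figure D1:**
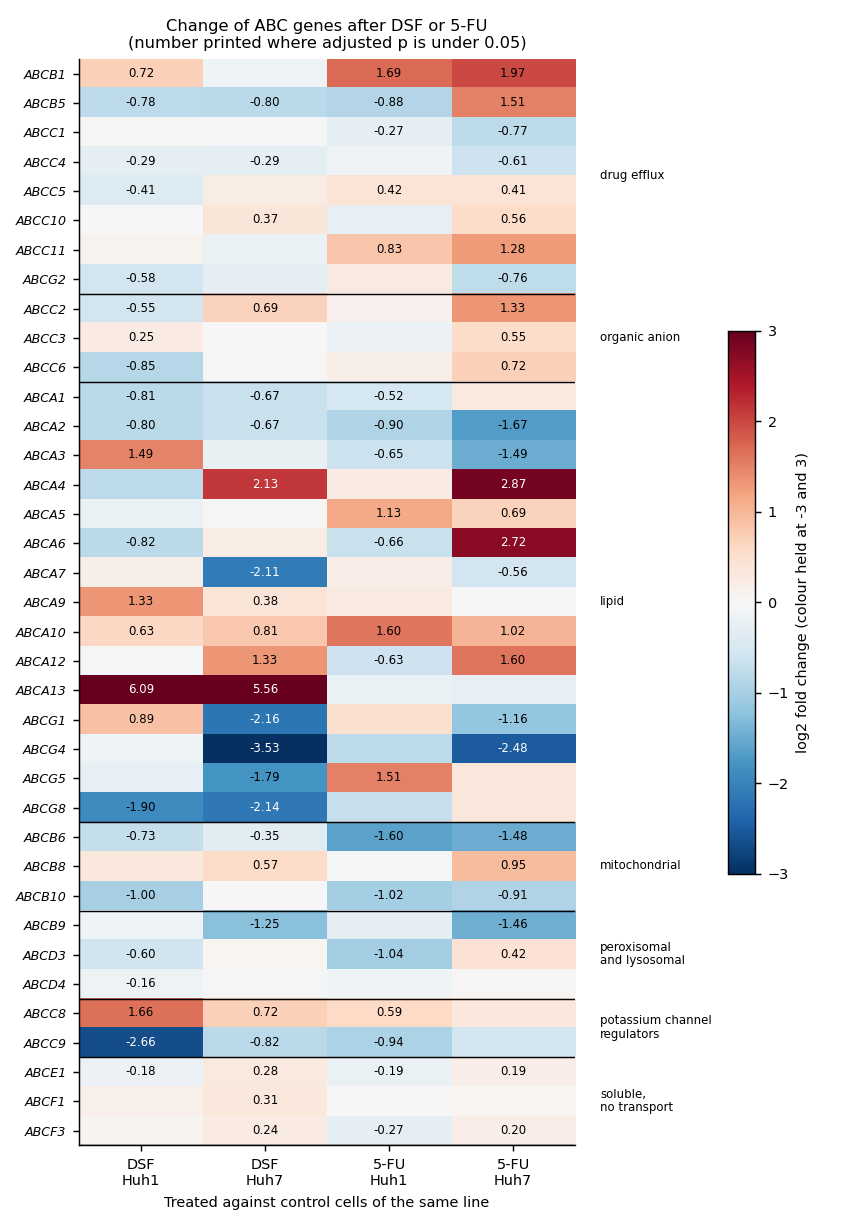
Change of the 37 tested ABC genes (rows, grouped by role) after DSF or 5-FU in Huh1 and Huh7, as log2 fold change against control cells of the same line (color, held at -3 and 3; 3 arrays against 3), with the number printed where the adjusted p is under 0.05. ABCA13 stands out in both DSF columns at 6.09 and 5.56, ABCB1 in both 5-FU columns at 1.69 and 1.97. Numbers for ABCB5 (other than 5-FU in Huh7), ABCA12 in Huh1, ABCC9 in Huh7, ABCG1 with DSF in Huh1 and ABCA3 with 5-FU in Huh1 are of genes not above background in either group; with spike-in scaling most of the falls after 5-FU shrink or turn.

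ABCA13, a very large lipid transporter of little defined function, was the member that changed most with DSF. In Huh1 control cells its level was -7.88, -7.82 and -7.86, on arrays where it was not well above background, and after DSF it was -1.75, -1.75 and -1.80. In Huh7 control cells it was -8.31, -8.12 and -8.33, again not well above background, and -2.70, -2.65 and -2.74 after DSF. All 6 DSF arrays stood well above background and above all 12 other arrays. ABCA13 entered the test only through its DSF arrays, so its calls with DSF follow in part from the filter. After 5-FU it read -8.33, -7.14 and -8.66 in Huh1 and -8.12, -8.82 and -8.57 in Huh7, not well above background on any array. A group without signal above background has only an upper bound, taken on each array as the lowest signal of any probe that was well above background or, if higher, the probe's own. By that bound ABCA13 was at least 26.8-fold higher after DSF than in control cells of Huh1 (adjusted p = 1.02e-09) and at least 17.1-fold higher in Huh7 (adjusted p = 3.44e-09). Against 5-FU it was at least 40.5-fold higher in Huh1 and at least 23.2-fold higher in Huh7. The fitted log2 changes were 6.09 ± 0.28 (SE) and 5.56 ± 0.28, and the latter was 5.56, adjusted p = 6.54e-04 within slide 2. With another background correction (normexp, which adds an offset and draws low signals together) they were 2.67 and 2.04.

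**Figure D2:**
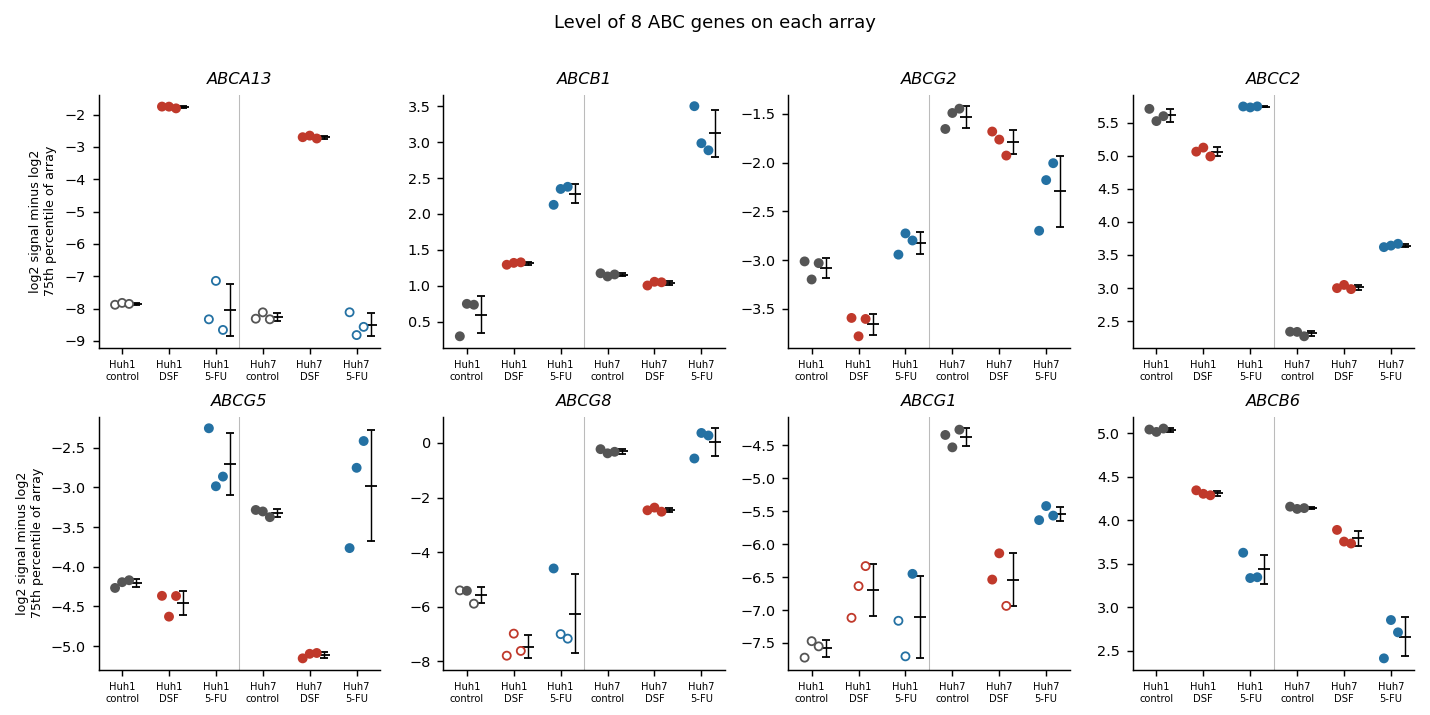
Level of 8 ABC genes on each of the 18 arrays, as log2 signal relative to the array's 75th percentile (each panel has its own axis); filled points are well above background, open points are not, and bars give mean and SD of 3 arrays. ABCA13 is filled only on the 6 DSF arrays, ABCB1 is highest on the 5-FU arrays of both lines, and ABCC2 moves down with DSF in Huh1 and up in Huh7.

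Among the drug exporters ABCB1 (P-glycoprotein, the classical multidrug pump) rose with 5-FU in both lines. Its level was 0.29, 0.75 and 0.73 in Huh1 control cells, 2.13, 2.35 and 2.38 after 5-FU and 1.29, 1.32 and 1.33 after DSF. In Huh7 cells it was 1.17, 1.13 and 1.16 in control cells, 3.50, 2.99 and 2.89 after 5-FU and 1.00, 1.05 and 1.05 after DSF. The 5-FU arrays of each line lay above all its other arrays without overlap. The rise after 5-FU was 3.23-fold in Huh1 (log2 change 1.69 ± 0.14, adjusted p = 5.35e-07) and 3.93-fold in Huh7 (1.97 ± 0.14, adjusted p = 4.07e-08), and it was larger still when scaled to the spike-ins (2.52 and 2.96). The 5-FU effect was not shown to differ between the lines (0.28 ± 0.20, adjusted p = 0.312). DSF raised ABCB1 by 1.65-fold in Huh1 (adjusted p = 8.93e-04), and in Huh7 the change was -0.12 ± 0.14 and did not pass. That line difference passed on its own (-0.84 ± 0.20, adjusted p = 0.00466).

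ABCG2 (breast cancer resistance protein, which exports drugs, porphyrins and urate) was lower after DSF in Huh1 and after 5-FU in Huh7. In Huh1 the level was -3.01, -3.20 and -3.03 in control cells, -3.59, -3.78 and -3.60 after DSF and -2.94, -2.73 and -2.80 after 5-FU, so the DSF arrays were below and the 5-FU arrays above all control arrays. In Huh7 it was -1.65, -1.49 and -1.45 in control cells, -1.68, -1.76 and -1.93 after DSF and -2.70, -2.18 and -2.01 after 5-FU. DSF lowered ABCG2 by 1.49-fold in Huh1 (adjusted p = 0.00406), while the change in Huh7 was -0.26 ± 0.14, adjusted p = 0.147. With 5-FU the change was 0.26 ± 0.14, adjusted p = 0.151 in Huh1 and -0.76 ± 0.14, adjusted p = 3.33e-04 in Huh7, the latter turning to 0.22 with spike-in scaling. The 5-FU effects of the lines differed by -1.02 ± 0.20 (Huh7 minus Huh1, adjusted p = 0.00119).

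ABCC1 (an exporter of glutathione conjugates and many anticancer drugs) fell with 5-FU relative to the bulk of transcripts and showed no detectable change with DSF. Its level was -0.29, -0.45 and -0.42 in Huh1 control cells and -0.72, -0.62 and -0.64 after 5-FU, and in Huh7 -1.24, -1.20 and -1.22 in control cells and -2.00, -2.18 and -1.81 after 5-FU. The changes were -0.27 ± 0.09, adjusted p = 0.0221 in Huh1 and -0.77 ± 0.09, adjusted p = 4.62e-06 in Huh7, and both turned upward with spike-in scaling (0.55 and 0.21). The Huh1 call was lost without control replicate 1 (adjusted p = 0.0832) or 5-FU replicate 1 (adjusted p = 0.0641). After DSF the changes were 0.03 ± 0.09 and -0.06 ± 0.09, with overlapping arrays in both lines.

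ABCC4 and ABCC5 export cyclic nucleotides and nucleotide analogs, the latter among them fluoropyrimidine metabolites. ABCC4 was -2.14, -2.12 and -2.18 in Huh1 control cells and -2.49, -2.43 and -2.39 after DSF, and in Huh7 -0.61, -0.65 and -0.60 in control cells and -0.87, -1.02 and -0.83 after DSF. It was thus lower with DSF in both lines by 0.29 and 0.29 on the log2 scale (adjusted p = 0.00645 and 0.00702), although with slide as a block the Huh7 value was -0.25, adjusted p = 0.123. After 5-FU ABCC4 changed by -0.61 ± 0.08, adjusted p = 8.73e-06 in Huh7, which turned to 0.37 with spike-in scaling, and by -0.10 ± 0.08, adjusted p = 0.299 in Huh1. ABCC5 was 3.33, 3.44 and 3.45 in Huh1 control cells, 3.01, 2.98 and 3.02 after DSF and 3.60, 3.94 and 3.94 after 5-FU. Its Huh7 level was 1.40, 1.34 and 1.31 in control cells, 1.57, 1.61 and 1.52 after DSF and 1.41, 1.81 and 2.04 after 5-FU. By the brightest of its 3 probes ABCC5 was higher with 5-FU in both lines, by 0.42 ± 0.13, adjusted p = 0.0134 in Huh1 and 0.41 ± 0.13, adjusted p = 0.0129 in Huh7, with a difference between the lines of -0.01 ± 0.18. A second probe changed by 0.22 (adjusted p = 0.076) and 0.28 (adjusted p = 0.0239), and the third by -0.32 and -0.28 (adjusted p = 0.0876 and 0.12), so that the rise depends on the probe. With the mean of probes neither call was kept (0.11, adjusted p = 0.466 in Huh1; 0.13, adjusted p = 0.326 in Huh7). Both calls of the brightest probe rested on single arrays: the Huh1 call was lost without 5-FU replicate 2 or 3 (adjusted p = 0.057 and 0.0573) and the Huh7 call without 5-FU replicate 3 (adjusted p = 0.0693). With DSF the brightest probe was lower in Huh1 (-0.41 ± 0.13, adjusted p = 0.0168; adjusted p = 0.0505 without control replicate 3) and changed by 0.22 ± 0.13 in Huh7, with a line difference of 0.63 ± 0.18, adjusted p = 0.0123. The other probes changed by 0.11 and -0.17 in Huh1 (adjusted p = 0.366 and 0.387), and the Huh1 call was lost with the mean of probes (-0.15, adjusted p = 0.292) and with spike-in scaling (-0.27, adjusted p = 0.172). In Huh7 the second probe rose with DSF by 0.66 (adjusted p = 6.95e-05).

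The remaining drug exporters moved mainly with 5-FU. ABCC11, which also carries fluoropyrimidine monophosphates, was -3.40, -3.63 and -3.44 in Huh1 control cells and -2.41, -2.76 and -2.81 after 5-FU, and in Huh7 -3.82, -3.63 and -3.84 in control cells and -2.79, -2.51 and -2.16 after 5-FU. It rose with 5-FU by 1.78-fold (adjusted p = 2.23e-04) and 2.42-fold (adjusted p = 2.48e-06), and DSF left changes of 0.10 ± 0.14 and -0.19 ± 0.14 that did not pass. ABCC10, an exporter of taxanes, rose in Huh7 with 5-FU (0.56 ± 0.10, adjusted p = 2.52e-04; 0.18, adjusted p = 0.277 by a second probe) and with DSF (0.37 ± 0.10, adjusted p = 0.00747; with the slide block 0.29, adjusted p = 0.164), and its 5-FU effect differed between the lines (0.80 ± 0.14, adjusted p = 5.35e-04). By the second probe that line difference was 0.33 and did not pass (adjusted p = 0.21). ABCB5, a P-glycoprotein relative known from melanoma, was well above background on the 3 Huh7 5-FU arrays alone, at -5.34, -6.04 and -6.16 against -7.64, -7.38 and -7.04 in control cells. It was at least 1.92-fold higher there (adjusted p = 1.23e-04), but with normexp the change was -0.10. In the other 5 groups ABCB5 was not above background on any array, and no fold is given for them. In all, 8 of 8 drug exporters passed in Huh7 after 5-FU, 5 higher and 3 lower (63.5% of all genes passed there). Of the 5 higher, ABCB5 entered the test only through its Huh7 5-FU arrays, so its call there follows in part from the filter. ABCC5, also higher, lost its call with the mean of probes. The 3 lower (ABCC1, ABCC4 and ABCG2) turned upward with spike-in scaling (0.21, 0.37 and 0.22). In Huh1 5 of 8 (62.5%) passed, 3 higher and 2 lower, where 54.9% of all genes passed. ABCB5, 1 of the 2 lower, was at background there in both groups.

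Among the organic anion exporters ABCC2, which moves conjugated bilirubin and drug conjugates into bile, was 5.71, 5.52 and 5.60 in Huh1 control cells, 5.06, 5.12 and 4.99 after DSF and 5.74, 5.73 and 5.75 after 5-FU. In Huh7 it was 2.34, 2.34 and 2.27 in control cells, 3.00, 3.05 and 2.98 after DSF and 3.62, 3.64 and 3.67 after 5-FU. All Huh1 DSF arrays were below and all Huh7 DSF arrays above their own control arrays. DSF changed ABCC2 by -0.55 ± 0.06, adjusted p = 2.80e-06 in Huh1 and by 0.69 ± 0.06, adjusted p = 3.59e-07 in Huh7, where the value within slide 2 was 0.68, adjusted p = 0.00595. The difference between the lines was 1.25 ± 0.08, adjusted p = 9.14e-08. After 5-FU ABCC2 rose 2.51-fold in Huh7 (adjusted p = 3.12e-10) and changed by 0.13 ± 0.06, adjusted p = 0.0713 in Huh1, a line difference of 1.20 ± 0.08, adjusted p = 1.59e-07.

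ABCC3, the blood-facing exporter of glucuronides, has 2 probes that did not behave alike. By the brighter probe its level was 3.69, 3.65 and 3.75 in Huh1 control cells, 3.91, 4.01 and 3.91 after DSF and 3.71, 3.42 and 3.40 after 5-FU, and in Huh7 1.02, 1.09 and 0.96 in control cells, 0.96, 1.11 and 1.04 after DSF and 1.68, 1.56 and 1.49 after 5-FU. It rose with 5-FU in Huh7 (0.55 ± 0.08, adjusted p = 4.76e-05) and changed by -0.18 ± 0.08, adjusted p = 0.0857 in Huh1, with a line difference of 0.74 ± 0.12, adjusted p = 2.35e-04. The second probe rose with 5-FU in both lines, by 1.14 in Huh1 and 2.83 in Huh7 on the log2 scale (adjusted p = 1.59e-07 and 2.24e-11). DSF raised the brighter probe in Huh1 by 0.25 ± 0.08, adjusted p = 0.0249 (second probe -0.04), a call lost without control replicate 1 or 2 or DSF replicate 2 (adjusted p = 0.0539, 0.0787 and 0.0925). Against 5-FU in Huh1 the brighter probe was higher with DSF (0.43 ± 0.08, adjusted p = 6.42e-04; -0.26 with spike-in scaling) and the second was lower (-1.18), so that direction depends on the probe.

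ABCC6, which releases ATP and is lost in pseudoxanthoma elasticum, has near-identical pseudogene copies, and its probes may read those as well. Its level was 4.36, 4.44 and 4.36 in Huh1 control cells, 3.57, 3.54 and 3.51 after DSF and 4.78, 4.44 and 4.48 after 5-FU, and in Huh7 2.25, 2.26 and 2.26 in control cells, 2.34, 2.26 and 2.27 after DSF and 2.62, 2.99 and 3.31 after 5-FU. DSF lowered it in Huh1 (-0.85 ± 0.13, adjusted p = 1.04e-04), and the change in Huh7 was 0.04 ± 0.13, a line difference of 0.88 ± 0.18, adjusted p = 0.00164. Of its 3 dimmer probes 1 fell with DSF in Huh7 as well. After 5-FU it was higher in Huh7 (0.72 ± 0.13, adjusted p = 2.63e-04). Of the 3 tested organic anion exporters all 3 passed higher in Huh7 after 5-FU, where 32.5% of all genes did.

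ABCA1, which loads cellular cholesterol and phospholipid onto apolipoprotein A-I, was lower after DSF in both lines. It read 1.14, 1.23 and 1.28 in Huh1 control cells and 0.43, 0.45 and 0.33 after DSF, and in Huh7 -0.01, 0.24 and 0.20 in control cells and -0.36, -0.61 and -0.62 after DSF. The DSF arrays lay below all control arrays of their line, by 1.76-fold in Huh1 (adjusted p = 7.53e-04) and 1.59-fold in Huh7 (adjusted p = 0.00325). With the slide block the Huh7 change was -0.50, adjusted p = 0.131, and a second ABCA1 probe changed by -0.14 in Huh1 (adjusted p = 0.422) and -0.63 in Huh7 (adjusted p = 0.00164). After 5-FU the level was 1.12, 0.49 and 0.48 in Huh1 and 0.28, 0.33 and 0.72 in Huh7. The change with 5-FU was -0.52 ± 0.16, adjusted p = 0.0144 in Huh1 (0.31 with spike-in scaling) and 0.30 ± 0.16, adjusted p = 0.117 in Huh7. The Huh1 call was lost without 5-FU replicate 2 or 3 (adjusted p = 0.0704 and 0.071).

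ABCG1, which passes cholesterol to high-density lipoprotein, was well above background in Huh7 control and 5-FU cells and near background in Huh1. The Huh7 arrays read -4.34, -4.53 and -4.26 in control cells, -6.54, -6.14 and -6.94 after DSF and -5.64, -5.42 and -5.57 after 5-FU. DSF lowered it 4.46-fold in Huh7 (adjusted p = 2.16e-05; within slide 2 -2.16, adjusted p = 0.00136), and 5-FU lowered it 2.24-fold (adjusted p = 0.00214; log2 change -0.18 with spike-in scaling). In Huh1 it was -7.72, -7.47 and -7.55 in control cells and -7.12, -6.64 and -6.33 after DSF, with no array well above background, so no fold is given. ABCG4, a close relative of ABCG1, was -4.87, -4.43 and -4.67 in Huh7 control cells, -7.71, -8.11 and -8.75 after DSF and -7.88, -6.47 and -7.09 after 5-FU. It was at least 6.74-fold lower with DSF in Huh7 (adjusted p = 6.10e-06; with normexp a log2 change of -0.82), where no DSF array was well above background. In Huh1 it was -5.64, -5.18 and -4.43 in control cells and -5.34, -5.08 and -5.21 after DSF, with overlapping arrays. The fitted difference between the DSF effects of the lines was -3.41 ± 0.55, adjusted p = 2.48e-04, a size that rests on the background signal of the Huh7 DSF arrays.

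The ABCG5 and ABCG8 proteins work as a pair that secretes sterols into bile, and their genes run apart from the 131 bases printed above. ABCG5 was -4.27, -4.19 and -4.17 in Huh1 control cells, -4.37, -4.63 and -4.37 after DSF and -2.26, -2.99 and -2.86 after 5-FU. In Huh7 it was -3.29, -3.30 and -3.38 in control cells, -5.15, -5.10 and -5.09 after DSF and -3.77, -2.75 and -2.42 after 5-FU. DSF lowered it 3.46-fold in Huh7 (adjusted p = 6.81e-05; within slide 2 -1.83, adjusted p = 0.046) and the change in Huh1 was -0.24 ± 0.26, adjusted p = 0.478, a line difference of -1.55 ± 0.36, adjusted p = 0.00402. With 5-FU it rose 2.84-fold in Huh1 (adjusted p = 2.54e-04), and in Huh7 the arrays spread on both sides of the control arrays (0.34 ± 0.26, adjusted p = 0.275). The difference between the lines after 5-FU was -1.16 ± 0.36, adjusted p = 0.0219 and was lost without Huh1 5-FU replicate 1 (adjusted p = 0.0528).

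ABCG8 was -0.23, -0.38 and -0.32 in Huh7 control cells, -2.47, -2.37 and -2.52 after DSF and -0.57, 0.37 and 0.27 after 5-FU. DSF lowered it 4.41-fold there (adjusted p = 0.00315; with the slide block -2.16, adjusted p = 0.055; within slide 2 -2.16, adjusted p = 0.0129). In Huh1 it was near background, at -5.40, -5.41 and -5.89 in control cells with 1 of 3 arrays well above it, and -7.79, -6.98 and -7.62 after DSF with none. The bound there was at least 2.32-fold lower with DSF (adjusted p = 0.00679). After 5-FU the change was -0.69 ± 0.50 in Huh1 and 0.33 ± 0.50 in Huh7, neither of which passed. With normexp the DSF changes in Huh7 were -0.94 for ABCG5, -1.83 for ABCG8 and -0.74 for ABCG1. ABCG5 and ABCG8 were thus both lower with DSF in Huh7. In Huh1 the ABCG8 call was lost with normexp (-0.39, adjusted p = 0.117) and within slide 1 (-1.82, adjusted p = 0.105).

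ABCA7, the closest relative of ABCA1, fell with DSF in Huh7. It was 0.92, 0.95 and 0.96 in Huh7 control cells, -1.15, -1.16 and -1.17 after DSF and 0.67, 0.33 and 0.14 after 5-FU. The 3 Huh7 DSF arrays, which came from slides 2 and 3, lay close together, and the fall was 4.31-fold (adjusted p = 6.31e-08; within slide 2 -2.10, adjusted p = 0.00314). In Huh1 it was -1.50, -2.12 and -1.92 in control cells and -1.70, -1.51 and -1.77 after DSF, with overlapping arrays, and the line difference was -2.29 ± 0.20, adjusted p = 1.41e-06. The change with 5-FU in Huh7 was -0.56 ± 0.14, adjusted p = 0.0034, and 0.42 with spike-in scaling.

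ABCA2, an endolysosomal lipid transporter, was lower by its brighter probe with both drugs in both lines, while its second probe passed in none of these comparisons. By the brighter probe its level was -1.22, -1.36 and -1.30 in Huh1 control cells, -2.20, -2.04 and -2.06 after DSF and -1.97, -2.27 and -2.34 after 5-FU, and in Huh7 -1.62, -1.59 and -1.71 in control cells, -2.40, -2.28 and -2.24 after DSF and -3.15, -3.48 and -3.30 after 5-FU. All treated arrays lay below all control arrays of their line. The DSF changes were -0.80 ± 0.10, adjusted p = 1.82e-05 in Huh1 and -0.67 ± 0.10, adjusted p = 1.02e-04 in Huh7 (within slide 2 -0.76, adjusted p = 0.0173). The 5-FU changes were -0.90 ± 0.10, adjusted p = 6.55e-06 in Huh1 and -1.67 ± 0.10, adjusted p = 6.96e-09 in Huh7, which became -0.07 and -0.68 with spike-in scaling, so that the Huh1 fall was no longer called. The second probe changed by -0.43 (adjusted p = 0.0628) and 0.18 (adjusted p = 0.408) with DSF in Huh1 and Huh7, and by -0.05 (adjusted p = 0.844) and -0.24 (adjusted p = 0.251) with 5-FU. With the mean of both probes the Huh7 DSF change was -0.24, adjusted p = 0.109.

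ABCA3, which packs surfactant lipid in the lung, was -0.88, -0.80 and -0.79 in Huh7 control cells, -1.03, -1.03 and -1.11 after DSF and -2.80, -2.01 and -2.13 after 5-FU. It fell with 5-FU in Huh7 (-1.49 ± 0.22, adjusted p = 4.62e-05; -0.50 with spike-in scaling). In Huh1 control cells it was not above background (-6.90, -7.31 and -7.53), and after DSF 1 of 3 arrays was well above it (-5.51, -5.87 and -5.87), a rise of at least 1.7-fold (adjusted p = 7.91e-05; with normexp a log2 change of 0.17). ABCA12, the lipid transporter of the skin barrier, rose from background in Huh7. It was -7.95, -7.36 and -7.51 in Huh7 control cells, -5.92, -6.49 and -6.42 after DSF and -5.93, -6.24 and -5.84 after 5-FU (3 and 2 arrays well above background), or at least 1.43-fold higher with DSF (adjusted p = 6.75e-05) and at least 1.72-fold higher with 5-FU (adjusted p = 5.84e-06). With normexp those changes were 0.01 and -0.10. ABCA12 entered the test only through its Huh7 DSF arrays, so its call with DSF follows in part from the filter. In the 3 Huh1 groups ABCA12 was not above background on any array.

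ABCA5, ABCA6, ABCA9 and ABCA10 are neighboring genes of a single cluster, yet moved in separate ways. ABCA5 rose with 5-FU from 0.53, 0.67 and 0.68 to 1.64, 1.83 and 1.81 in Huh1 and from -1.35, -1.28 and -1.37 to -0.83, -0.44 and -0.67 in Huh7 (log2 changes 1.13 ± 0.09, adjusted p = 2.56e-07 and 0.69 ± 0.09, adjusted p = 1.11e-05), and changed by -0.20 ± 0.09 and 0.03 ± 0.09 with DSF. ABCA10 rose with all treatments. It was -3.54, -4.18 and -4.10 in Huh1 control cells, -3.22, -3.43 and -3.29 after DSF and -2.73, -2.11 and -2.20 after 5-FU, and in Huh7 -3.29, -3.13 and -3.26 in control cells, -2.86, -2.11 and -2.29 after DSF and -2.21, -2.23 and -2.18 after 5-FU. The 5-FU changes of ABCA10 were 1.60 ± 0.20, adjusted p = 2.03e-05 and 1.02 ± 0.20, adjusted p = 5.77e-04, and the DSF changes 0.63 ± 0.20, adjusted p = 0.0215 and 0.81 ± 0.20, adjusted p = 0.00491. The Huh1 DSF call for ABCA10 was lost without control replicate 2 or 3 or DSF replicate 1 or 3 (adjusted p = 0.0532 to 0.0917), and in Huh7 the DSF change with the slide block was 0.37, adjusted p = 0.323.

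ABCA9 rose with DSF in Huh1, from 4.34, 3.92 and 4.26 to 5.52, 5.60 and 5.41 (1.33 ± 0.12, adjusted p = 1.17e-06). In Huh7 it went from 4.32, 4.43 and 4.14 to 4.49, 4.83 and 4.72 (0.38 ± 0.12, adjusted p = 0.0206), a call lost with the slide block (0.20, adjusted p = 0.431) and without control replicate 3 or DSF replicate 2 or 3 (adjusted p = 0.0617 to 0.0915). Its DSF effect was smaller in Huh7 by the test of the difference (-0.95 ± 0.17, adjusted p = 7.01e-04). ABCA6 was 2.35, 2.21 and 2.33 in Huh1 control cells, 1.50, 1.48 and 1.46 after DSF and 1.93, 1.48 and 1.48 after 5-FU. In Huh7 the level was -4.86, -4.64 and -4.20 in control cells, -4.22, -4.34 and -4.44 after DSF and -2.33, -1.84 and -1.38 after 5-FU, so that it rose with 5-FU there 6.58-fold (adjusted p = 6.14e-08). The Huh1 changes went the other way, -0.82 ± 0.21, adjusted p = 0.00485 with DSF and -0.66 ± 0.21, adjusted p = 0.0157 with 5-FU (0.16 with spike-in scaling). The 5-FU call in Huh1 was lost without 5-FU replicate 2 or 3 (adjusted p = 0.0602 and 0.0594).

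ABCA4, the retinoid transporter of photoreceptors, was well above background on every array except 2 of the 3 Huh7 control arrays. In Huh7 it was -7.42, -7.38 and -5.16 in control cells, -4.62, -4.50 and -4.45 after DSF and -3.68, -4.15 and -3.51 after 5-FU, with log2 changes of 2.13 ± 0.42, adjusted p = 8.96e-04 and 2.87 ± 0.42, adjusted p = 4.02e-05. With normexp they were 0.45 and 0.70, and within slide 2 the DSF change was 2.03, adjusted p = 0.172. In Huh1 it was 3.17, 3.40 and 3.38 in control cells, 2.53, 2.54 and 2.54 after DSF and 3.59, 3.52 and 3.55 after 5-FU, and neither change passed with 75th percentile scaling. All Huh1 DSF arrays lay below and all Huh1 5-FU arrays above the Huh1 control arrays. The spread shared by all groups includes that of the Huh7 control arrays (SD 1.3), so a missing call in Huh1 does not show that ABCA4 was unchanged.

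Of the mitochondrial members ABCB6, a porphyrin transporter, fell with both drugs in both lines. Its level was 5.04, 5.02 and 5.05 in Huh1 control cells, 4.34, 4.30 and 4.29 after DSF and 3.63, 3.34 and 3.35 after 5-FU. Huh7 arrays read 4.16, 4.13 and 4.14 in control cells, 3.89, 3.76 and 3.73 after DSF and 2.41, 2.85 and 2.71 after 5-FU. The order control, DSF, 5-FU held in both lines without overlap. The 5-FU falls were 3.03-fold (adjusted p = 4.84e-08) and 2.79-fold (adjusted p = 1.97e-08), with log2 changes of -0.78 and -0.50 when scaled to the spike-ins. The DSF changes were -0.73 ± 0.10, adjusted p = 4.09e-05 in Huh1 and -0.35 ± 0.10, adjusted p = 0.0105 in Huh7, the latter -0.25, adjusted p = 0.229 with the slide block.

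ABCB10, needed for heme synthesis in mitochondria, was 2.25, 2.11 and 2.13 in Huh1 control cells, 1.23, 1.12 and 1.13 after DSF and 1.48, 0.97 and 0.97 after 5-FU, and in Huh7 0.83, 0.86 and 0.92 in control cells, 1.07, 0.80 and 0.80 after DSF and 0.05, 0.11 and -0.28 after 5-FU. It fell 2.01-fold with DSF in Huh1 (adjusted p = 2.91e-05) and changed by 0.02 ± 0.13, adjusted p = 0.924 in Huh7, a line difference of 1.02 ± 0.19, adjusted p = 6.80e-04. A second probe fell with DSF in Huh1 too (-1.06, adjusted p = 7.51e-05) but rose in Huh7 (0.42, adjusted p = 0.0395). With 5-FU ABCB10 fell in both lines (-1.02 ± 0.13, adjusted p = 2.39e-05 and -0.91 ± 0.13, adjusted p = 3.80e-05; -0.20 and 0.07 with spike-in scaling). ABCB8, another transporter of the inner membrane, gave opposite calls by its 2 probes in Huh7 after 5-FU (0.95 by the brighter and -0.61 by the second), so no direction is given for it.

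The peroxisomal and lysosomal members moved singly. ABCD3, which carries branched fatty acids and bile acid precursors, was 1.72, 1.56 and 1.52 in Huh1 control cells, 0.97, 0.96 and 1.05 after DSF and 0.35, 0.65 and 0.67 after 5-FU, and in Huh7 1.86, 1.87 and 1.91 in control cells, 2.04, 1.93 and 1.86 after DSF and 2.31, 2.45 and 2.14 after 5-FU. It fell in Huh1 with DSF (-0.60 ± 0.10, adjusted p = 1.59e-04) and with 5-FU (-1.04 ± 0.10, adjusted p = 1.21e-06; -0.22 with spike-in scaling), and rose in Huh7 with 5-FU (0.42 ± 0.10, adjusted p = 0.00177). The line difference was 0.67 ± 0.14, adjusted p = 0.00153 for DSF and 1.47 ± 0.14, adjusted p = 2.73e-06 for 5-FU. ABCB9, a lysosomal peptide transporter, was -2.44, -2.60 and -2.52 in Huh7 control cells, -3.55, -3.90 and -3.87 after DSF and -4.43, -3.84 and -3.68 after 5-FU. Both falls passed (-1.25 ± 0.16, adjusted p = 2.83e-05 and -1.46 ± 0.16, adjusted p = 3.00e-06, the latter -0.47 with spike-in scaling), and in Huh1 the changes were -0.13 ± 0.16 and -0.30 ± 0.16. Within slide 2 the DSF change of ABCB9 in Huh7 was -1.03, adjusted p = 0.0513. ABCD4, which serves cobalamin in lysosomes, changed by at most 0.16 in any of the 4 drug comparisons.

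The sulfonylurea receptor genes ABCC8 and ABCC9, whose proteins gate potassium channels and are not pumps, went in opposite directions with DSF. ABCC8 was -6.48, -6.41 and -7.00 in Huh1 control cells, not above background, and -4.89, -4.78 and -5.23 after DSF. It was at least 2.81-fold higher there (adjusted p = 5.86e-06; with normexp a log2 change of 0.43). In Huh7 it went from -5.86, -6.24 and -5.84 to -5.24, -5.21 and -5.32 (0.72 ± 0.18, adjusted p = 0.0053; with the slide block 0.74, adjusted p = 0.0512). ABCC9 was -3.91, -2.87 and -2.87 in Huh1 control cells and -5.78, -5.88 and -5.98 after DSF, where no array was above background, a fall of at least 6.33-fold (adjusted p = 1.14e-05; with normexp -1.13). In all 3 Huh7 groups ABCC9 was not above background, and no fold is given. ABCC8 entered the test only through its DSF arrays, so its calls with DSF follow in part from the filter.

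The soluble members ABCE1 (ribosome recycling), ABCF1 and ABCF3 (translation factors) moved little. Their log2 changes lay between -0.27 and 0.31 over the 4 drug comparisons. ABCE1 went down in Huh1 and up in Huh7 with both drugs, by -0.18 and 0.28 with DSF and -0.19 and 0.19 with 5-FU, the Huh1 value turning to 0.64 with spike-in scaling. The DSF call in Huh1 was lost when any 1 of 13 arrays was left out (adjusted p = 0.0529 to 0.146), and the second ABCE1 probe rose there by 0.17 (adjusted p = 0.0402). The 5-FU calls were lost when any 1 of 4 arrays was left out in Huh1 (adjusted p = 0.0595 to 0.13) and any 1 of 5 in Huh7 (adjusted p = 0.0501 to 0.125).

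With DSF, 4 members passed higher in both lines (ABCA9, ABCA10, ABCA13 and ABCC8), where 11.7% of all genes did, and 7 passed lower in both (ABCA1, ABCA2, ABCB5, ABCB6, ABCC4, ABCC9 and ABCG8; 10.4% of all genes). Of these 7, ABCB5 was not above background in any of the 4 groups compared and ABCC9 in none of the Huh7 groups, and the Huh7 call of ABCC9 was lost when any 1 of 9 arrays was left out (adjusted p = 0.0555 to 0.162). With slide as a block the Huh7 calls of ABCA1, ABCA9, ABCA10, ABCB6, ABCC4, ABCC8 and ABCG8 were lost as well. ABCA2 passed by its brighter probe alone, as did ABCA1 in Huh1. ABCA13 and ABCC8 entered the test only through their DSF arrays, so their higher calls follow in part from the filter. ABCC2, ABCE1 and ABCG1 passed in opposite directions (8.82% of all genes). With 5-FU, 5 members passed higher in both lines (ABCA5, ABCA10, ABCB1, ABCC5 and ABCC11; 16.0% of all genes), 5 passed lower in both (ABCA2, ABCA3, ABCB6, ABCB10 and ABCC1; 17.3% of all genes) and 6 in opposite directions (ABCA6, ABCA12, ABCB5, ABCD3, ABCE1 and ABCF3; 6.62% of all genes). ABCA3 was not above background in Huh1 control or 5-FU cells, nor ABCA12 and ABCB5 in any Huh1 group. All 5 that rose with 5-FU also rose with spike-in scaling, whereas of the 5 that fell only ABCB6 fell in both lines with a call. Of the 6 with opposite directions, the Huh1 values of ABCA6 (0.16), ABCA12 (0.19), ABCE1 (0.64, adjusted p = 0.00208) and ABCF3 (0.56, adjusted p = 0.00325) turned upward with that scaling, and those of ABCB5 (-0.06) and ABCD3 (-0.22) no longer passed.

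DSF and 5-FU were also compared directly. In Huh1 20 of 37 members passed, 10 higher and 10 lower with DSF than with 5-FU, against 55.8% of all genes (30.5% higher, 25.3% lower). In Huh7 26 passed, 10 higher and 16 lower, against 65.2% (34.5% higher, 30.7% lower). With spike-in scaling nearly all calls were lower with DSF, 24 of 27 in Huh1 and 32 of 33 in Huh7. ABCB1 was lower with DSF than with 5-FU by 1.96-fold in Huh1 (adjusted p = 6.76e-05) and 4.26-fold in Huh7 (adjusted p = 2.55e-08). ABCC2 was lower by 1.6-fold and 1.55-fold (adjusted p = 3.67e-07 and 3.25e-07), and ABCG5 by 3.37-fold and 4.38-fold (adjusted p = 6.87e-05 and 6.67e-06). ABCB6 was higher with DSF by 0.88 in Huh1 and 1.13 in Huh7 on the log2 scale (adjusted p = 6.88e-06 and 2.91e-07), and the Huh7 value turned to -0.03 with spike-in scaling. ABCG2 was lower with DSF than with 5-FU in Huh1 (-0.84 ± 0.14, adjusted p = 2.27e-04) and higher in Huh7 (0.50 ± 0.14, adjusted p = 0.00693; -0.66 with spike-in scaling).

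The effect of DSF differed between the lines for 20 of 37 members, where 46.3% of all genes differed, and that of 5-FU for 23, where 43.6% did. For DSF 11 effects were more positive in Huh7 and 9 more negative (24.3% and 21.9% of all genes). For 5-FU 13 were more positive and 10 more negative (23.7% and 19.9% of all genes). The 5 most negative differences for DSF were those of ABCG4 (-3.41), ABCG1 (-3.04), ABCA7 (-2.29), ABCA3 (-1.73) and ABCG5 (-1.55), of which ABCG1 and ABCA3 were at background in Huh1 control cells and ABCG4 in Huh7 DSF cells. These 5 handle lipids, as do ABCA4 (2.91; 1 of 3 Huh7 control arrays above background), ABCA12 (1.36; above background in Huh7 DSF cells alone of these groups) and ABCA6 (1.05), whose differences went the other way. On the positive side for 5-FU stood ABCA6 at 3.38, ABCA4 at 2.63, ABCD3 at 1.47 and ABCC2 at 1.20. With spike-in scaling the counts were 15 for DSF (5 positive, 10 negative) and 17 for 5-FU (12 positive, 5 negative).

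**Figure D3:**
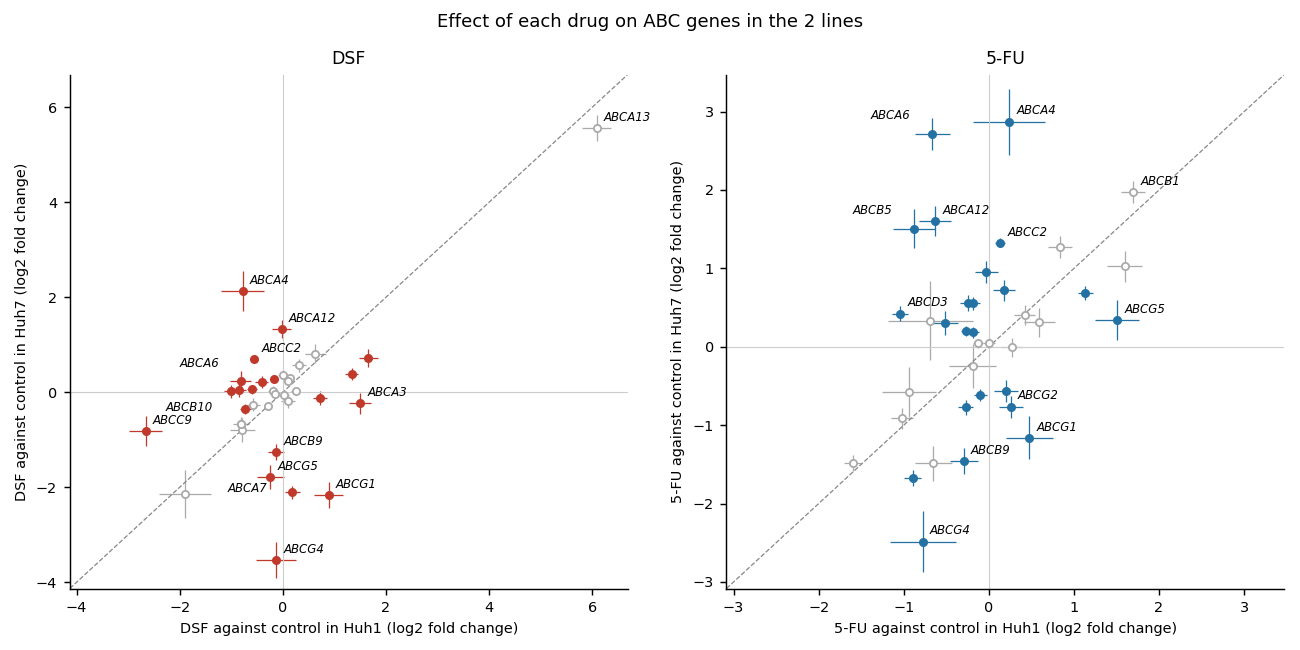
Log2 fold change of each tested ABC gene against control in Huh1 (horizontal) and Huh7 (vertical) after DSF (left) or 5-FU (right), with SE bars; filled points have a line difference with adjusted p under 0.05, and the dashed line marks equal effects. ABCA13 lies near the dashed line for DSF and ABCB1 for 5-FU, while ABCG4, ABCG1, ABCA7 and ABCG5 lie below it for DSF; with spike-in scaling the 5-FU values of Huh1 and Huh7 move up by 0.83 and 0.99.

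In control cells 31 of 37 members differed between the lines, 14 higher and 17 lower in Huh7, where 77.9% of all genes differed (39.3% higher, 38.6% lower). With slide as a block 26 passed (10 higher, 16 lower). The lines sat on separate slides, so slide and line cannot be told apart in these arrays except through the DSF arrays that crossed slides. The members highest in Huh7 were ABCA3, at -0.82 ± 0.045 (SD, n = 3) against -7.25 ± 0.32 in Huh1 where it was not above background (at least 51.6-fold), and ABCG8 (-0.31 ± 0.077 against -5.57 ± 0.28, a log2 difference of 5.26 ± 0.50, adjusted p = 2.37e-07, with 1 of 3 Huh1 arrays well above background). ABCG1 was at least 4.39-fold higher in Huh7 (adjusted p = 6.51e-08). ABCA7 differed by 2.79 ± 0.14, adjusted p = 1.81e-10, and ABCB8, whose second probe went the other way (-0.77), by 1.85 ± 0.14.

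The members lowest in Huh7 were ABCA4 and ABCA6, at -6.65 ± 1.3 against 3.31 ± 0.12 for ABCA4 and -4.57 ± 0.33 against 2.29 ± 0.076 for ABCA6. The log2 differences were -9.97 ± 0.42, adjusted p = 2.28e-11 and -6.86 ± 0.21, adjusted p = 5.21e-13, and since only 1 of 3 Huh7 control arrays read ABCA4 well above background, its value and its rank depend on background signal. ABCC9 was at least 11.9-fold lower in Huh7 (adjusted p = 1.08e-08). All 3 tested organic anion exporters were lower in Huh7, ABCC2 by 9.81-fold, ABCC3 by 6.38-fold and ABCC6 by 4.38-fold (adjusted p = 1.38e-15, 7.39e-13 and 1.40e-09), although of the 4 ABCC6 probes 1 showed no such difference (0.0032). The drug exporters were split: ABCG2 (1.55 ± 0.14), ABCC4 (1.53 ± 0.08) and ABCB1 (0.56 ± 0.14) were higher in Huh7, and ABCC5 (-2.06 ± 0.13), ABCC1 (-0.84 ± 0.09) and ABCC10 (-0.49 ± 0.10) were lower. With slide as a block the ABCB1 difference was 0.54, adjusted p = 0.118. ABCA1 was 2.11-fold lower in Huh7 (adjusted p = 2.32e-05).

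**Figure D4:**
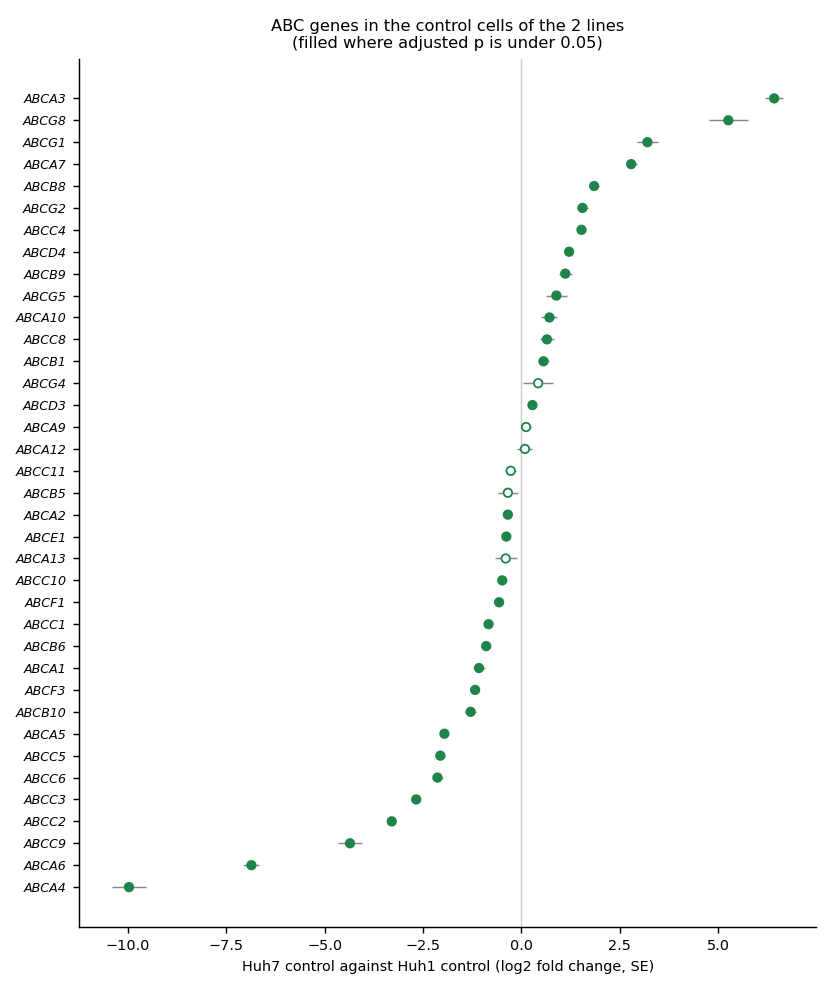
Difference between Huh7 and Huh1 control cells for the 37 tested ABC genes as log2 fold change with SE (3 arrays against 3), ordered by size; filled points have an adjusted p under 0.05. ABCA3 and ABCG8 stand at the Huh7 end (6.42 and 5.26) and ABCA4 and ABCA6 at the Huh1 end (-9.97 and -6.86); values of genes at background in a line, among them ABCA3 and ABCC9, are bounded by that background, and ABCG8 in Huh1 and ABCA4 in Huh7 were above it on 1 of 3 arrays.

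Genes that work with the transporters were read from lists of textbook partners. Of 11 tested xenobiotic receptors and enzymes, 8 passed higher with 5-FU in both lines (16.0% of all genes did) and 1 lower. CYP2C8, a drug-oxidizing cytochrome, rose by 1.89 in Huh1, where 2 of 3 control arrays were well above background, and was at least 4.13-fold higher in Huh7 (adjusted p = 2.40e-05), where no control array was; with normexp the log2 changes were 0.66 and 0.48. CYP3A5, another such cytochrome, changed by 1.04 and 2.60, and NR1I3, the constitutive androstane receptor, by 1.22 and 0.97. Of the 11 genes, CYP2C8 and the cytochrome CYP3A4 entered the test only through their 5-FU arrays. The CYP2C8 calls, and with them the count of 8, therefore follow in part from the filter. NR1I2, the pregnane X receptor that drives ABCB1 and CYP3A genes, changed by 0.55 ± 0.13, adjusted p = 0.00372 and 2.22 ± 0.13, adjusted p = 6.97e-09 and was added to this account for that role after its values were seen. GSTA2, a glutathione transferase, fell by 1.40 and 1.66 and stayed lower with spike-in scaling (-0.58 and -0.67). With DSF, 6 of the 11 (54.5%) passed in Huh1 (2 higher, 4 lower), near the 52.7% of all genes, and 3 (27.3%) in Huh7, all lower, where 53.2% of all genes passed.

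Among 15 partners of the liver X receptor and cholesterol transport, 5 passed lower with DSF in both lines (10.4% of all genes did) and 5 passed in opposite directions (8.82% of all genes). Of the latter, MYLIP, LCAT, NPC1 and NPC2 were higher in Huh1 and lower in Huh7, and SMPDL3A was lower in Huh1 and higher in Huh7. MYLIP, a ligase that degrades the LDL receptor, changed by 1.02 ± 0.10 in Huh1 and -0.62 ± 0.10 in Huh7. These 5 were named after their values were seen. APOA1, the acceptor of cholesterol from ABCA1, fell by 2.03 in Huh1 and 0.82 in Huh7 on the log2 scale (adjusted p = 3.55e-06 and 0.00593). NR1H3, the liver X receptor alpha gene, fell by 0.64 and 0.44 (adjusted p = 1.69e-04 and 0.00315), SREBF1 by 0.33 and 0.81, and LPCAT3 by 0.78 and 0.45. Beside these genes ABCA1 was lower with DSF in both lines by its brighter probe, and ABCG1 was lower in Huh7. The second ABCA1 probe did not pass in Huh1 (-0.14, adjusted p = 0.422), and the Huh7 call of ABCA1 was lost with slide as a block. With 5-FU APOA1 rose in both lines (0.62 and 0.88).

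Of 13 tested solute carriers of drugs, nucleosides and anions, 7 passed in each line with DSF (53.8%, near the 52.7% and 53.2% of all genes in Huh1 and Huh7). All 7 were lower in Huh1 (26.3% of all genes were), and 6 of 7 were lower in Huh7 (24.1% of all genes), 1 of them at background in both groups. SLC28A1, a nucleoside carrier, was at least 2.24-fold lower with DSF in Huh1 (adjusted p = 0.00267; with normexp a log2 change of -0.29), where no DSF array was well above background, and was at background in Huh7 control and DSF cells, so that no fold is given there. SLC47A1, a cation exporter, changed by -1.53 ± 0.17 and -0.57 ± 0.17, SLCO2B1, an anion uptake carrier, by -0.62 ± 0.16 and -0.58 ± 0.16, and SLC29A2, a nucleoside carrier, by -0.72 ± 0.08 and -0.39 ± 0.08. With 5-FU 2 of the 13 passed higher in both lines (16.0% of all genes did) and 3 passed lower (17.3% of all genes), SLC29A2 and SLC51A among the latter. The mean level of SLC29A2 went from -0.19 to -0.84 in Huh1 and from 1.59 to 1.09 in Huh7, relative to the bulk of transcripts. The rise of the 75th percentile against the spike-ins after 5-FU, 0.83 in Huh1 and 0.99 in Huh7, exceeds both falls. With spike-in scaling the SLC29A2 change therefore turned upward in both lines. The 2 higher were SLC22A9 and SLC51B, by 1.09 and 3.12 for SLC22A9 and 0.66 and 2.48 for SLC51B, the bile acid exporter subunit. Its partner SLC51A changed by -1.64 in Huh7 (-0.65 with spike-in scaling) and was not above background in Huh1 control or 5-FU cells.

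**Figure D5:**
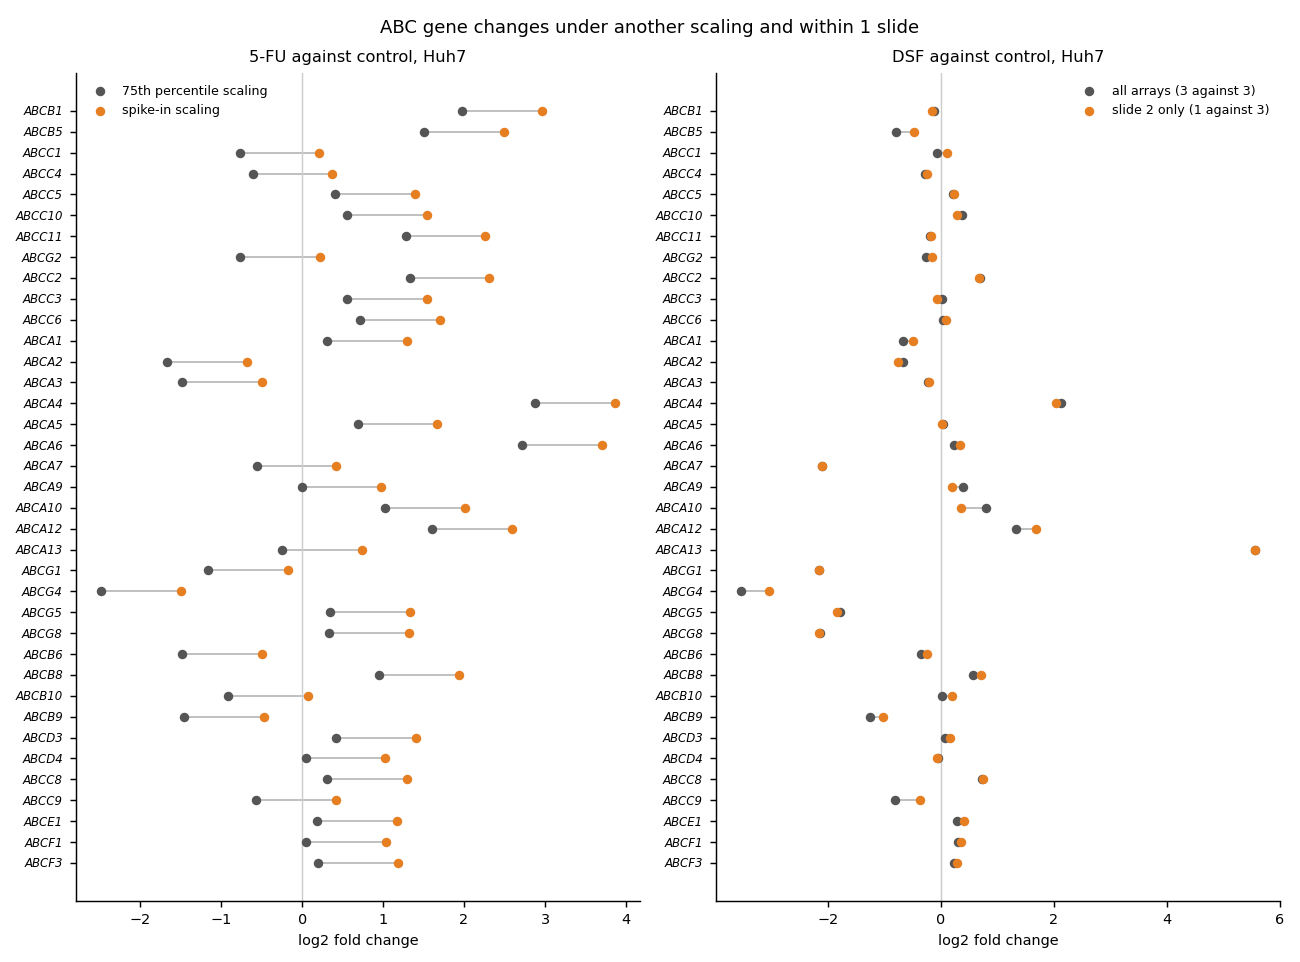
Log2 fold change of the 37 tested ABC genes in Huh7 after 5-FU with 75th percentile scaling (gray) or spike-in scaling (orange) on the left, and after DSF over all arrays (gray) or within slide 2 (orange, 1 array against 3) on the right. Spike-in scaling moves every 5-FU value up by 0.99 and takes ABCC1, ABCC4 and ABCG2 among others across 0. Within slide 2 ABCA13, ABCA7, ABCG1, ABCG5 and ABCG8 keep their direction, though 1 DSF array has no spread of its own. With slide as a block over all arrays the ABCG8 call was lost.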

How the data were processed

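The samples were 18 one-color arrays of 6 groups. The deposited scanner files hold spot intensity on a linear scale from Agilent Feature Extraction (version 10.7.1.1 per the file headers), background-subtracted by the authors' scanner software. The authors' table holds each signal as a ratio to the 75th percentile of its array, and was used only as an alternative. Here the log2 of the deposited processed intensity was averaged over unflagged spots of a probe, and the log2 75th percentile of the array was subtracted. Of 42405 probes 78 had no unflagged spot on an array and were left out. Probes were named through RefSeq accessions (25732 named). Array probes are of an hg19 design, and the promoters are of GRCh38.p14.

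Probes that read well above background throughout 1 or more groups entered a single limma fit (version 3.58.1, R 4.3.3) of the 6 groups, with Benjamini-Hochberg adjustment over all probes and a threshold of 0.05, and each gene was read by its brightest probe over all arrays. Values after ± are SE for changes. The fit was tested on simulated data. Values were handled with pandas 2.3.3 and drawn with matplotlib 3.10.9 (Python 3.11.15). Alternatives were normexp (offset 50, on spot medians, since the files used here hold no spot mean), quantile, median and spike-in scaling, other filters, the mean of probes, slide or replicate as a block, single slides, the groups compared alone, the authors' table, trended and robust variances and left-out arrays. Named are 11 members with defined liver or drug roles, members called alike in both lines or with a line difference, members at background in a group, the 5 largest each way in control cells, and up to 4 genes a list. The members, lists and rule were chosen with earlier results of these data known. Some family members and list genes are not reported here.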

Additional observations from a re-analysis of the deposited data

Results flagged for a closer look

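The drug effects of the lines differed by the interaction term of the limma fit (adjusted p under 0.05) for 20 members with DSF and 23 with 5-FU, each given below as the log2 change in Huh7 minus that in Huh1. For DSF the effect was more negative in Huh7 for ABCG4 by -3.41, ABCG1 by -3.04, ABCA7 by -2.29, ABCA3 by -1.73, ABCG5 by -1.55, ABCB9 by -1.12, ABCA9 by -0.95, ABCC8 by -0.94 and ABCB1 by -0.84. It was more positive in Huh7 for ABCA4 by 2.91, ABCC9 by 1.84, ABCA12 by 1.36, ABCC2 by 1.25, ABCA6 by 1.05, ABCB10 by 1.02, ABCC6 by 0.88, ABCD3 by 0.67, ABCC5 by 0.63, ABCE1 by 0.46 and ABCB6 by 0.38. ABCA3, ABCA12, ABCC8 and ABCG1 were not above background in Huh1 control cells, nor ABCG4 in Huh7 DSF cells or ABCC9 in Huh1 DSF or any Huh7 group, and ABCA4 was so on 1 of 3 Huh7 control arrays, so the sizes of these 7 differences rest in part on background signal.

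For 5-FU the effect was more negative in Huh7 for ABCG4 by -1.71, ABCG1 by -1.64, ABCG5 by -1.16, ABCB9 by -1.16, ABCG2 by -1.02, ABCA2 by -0.77, ABCA7 by -0.76, ABCC4 by -0.51, ABCC1 by -0.50 and ABCA5 by -0.45. It was more positive in Huh7 for ABCA6 by 3.38, ABCA4 by 2.63, ABCB5 by 2.39, ABCA12 by 2.23, ABCD3 by 1.47, ABCC2 by 1.20, ABCB8 by 0.98, ABCA1 by 0.82, ABCC10 by 0.80, ABCC3 by 0.74, ABCC6 by 0.54, ABCF3 by 0.47 and ABCE1 by 0.38. ABCA12 and ABCB5 were not above background on any Huh1 array or in Huh7 control cells, nor ABCG1 in Huh1 control cells, and ABCA4 was above it on 1 of 3 Huh7 control arrays and ABCG4 on 1 of 3 Huh7 5-FU arrays. Single arrays decided several of these calls. For DSF the ABCB6 call was lost when any 1 of 15 arrays was left out (adjusted p = 0.05 to 0.0892). For 5-FU the ABCC6 call was lost when any 1 of 8 arrays was left out (adjusted p = 0.0561 to 0.0789) and the ABCG4 call for any 1 of 4 (adjusted p = 0.0566 to 0.0663). The ABCG5 call was lost without Huh1 5-FU replicate 1 (adjusted p = 0.0528). By a dimmer probe the 5-FU difference did not pass for ABCA1 (0.46, adjusted p = 0.0761), ABCA2 (-0.20, adjusted p = 0.582) and ABCC10 (0.33, adjusted p = 0.21). Dimmer probes of ABCC6 gave 0.29, 0.31 and 0.88 (adjusted p = 0.21, 0.189 and 0.00142). Those of ABCB8, ABCC3, ABCD3 and ABCE1 passed in the same direction as the brightest.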

How the results depend on the processing

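Over 9 comparisons 216 member changes were called, and no alternative other than spike-in scaling, normexp, the mean of probes and quantile scaling turned the direction of any. With spike-in scaling 25 turned and 36 lost the call. The turned log2 values were ABCA1 0.31, ABCA12 0.19, ABCA3 0.17, ABCA6 0.16, ABCC1 0.55, ABCE1 0.64 and ABCF3 0.56 for 5-FU in Huh1, ABCA7 0.42, ABCB10 0.074, ABCC1 0.21, ABCC4 0.37 and ABCG2 0.22 for 5-FU in Huh7, ABCA12 -0.086, ABCC1 -0.39, ABCC3 -0.26, ABCD3 -0.25 and ABCF3 -0.33 for DSF against 5-FU in Huh1, and ABCA2 -0.16, ABCA9 -0.77, ABCB10 -0.23, ABCB6 -0.029, ABCC1 -0.45, ABCC4 -0.83, ABCF1 -0.90 and ABCG2 -0.66 for DSF against 5-FU in Huh7. That scaling moved the median of all probes after 5-FU by 0.79 in Huh1 and 0.94 in Huh7. With normexp, 16 lost the call and 5 turned: ABCA12 -0.10 and ABCB5 -0.097 for 5-FU in Huh7, ABCC8 -0.25 for 5-FU in Huh1, ABCG4 0.21 for DSF against 5-FU in Huh7, and ABCA12 -0.11 for the line difference with DSF. The mean of probes turned ABCB8 0.054 in Huh7 and ABCC3 -0.38 in Huh1 for DSF against 5-FU, and quantile scaling turned ABCA12 0.042 for 5-FU in Huh1. The cause of these changes was not tested. With normexp DSF against 5-FU in Huh1 gave 27 calls (16 higher, 11 lower), and with median scaling 23 (8 higher, 15 lower). Median scaling gave 24 for the line difference with DSF (15 higher, 9 lower).

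Of the counts, that for DSF in Huh7 (24) moved most: 14 with the slide block, 12 within slide 2 with 1 DSF array, and 15 with the stricter filter, which tested fewer members. Without each array in turn the counts ranged from 19 to 25 for DSF in Huh1, 21 to 25 for DSF in Huh7, 14 to 22 for 5-FU in Huh1, 27 to 29 for 5-FU in Huh7, 19 to 22 and 23 to 27 for DSF against 5-FU in Huh1 and Huh7, 19 to 21 and 21 to 25 for the line differences with DSF and 5-FU, and 30 to 32 for control cells, and 31 of the 216 calls were lost without at least 1 array. With the replicate number as a block the counts were 23, 23, 19, 28, 21, 26, 20, 22 and 31 in that order. Same-numbered arrays did not deviate together (45 correlations of -0.09 to 0.10), so the numbers were not taken to pair the samples. Changes that were not called have no direction here. Signal near background limits ABCA3, ABCA4, ABCA12, ABCA13, ABCB5, ABCC8, ABCC9, ABCG1, ABCG4 and ABCG8 in at least 1 group, and 3 arrays per group limit the precision of all values.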
